A study of Mus musculus with 564 samples.

Results

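A small set of strong H3K27ac elements in mouse macrophages was selected for staying near its untreated level after an inflammatory and an alternative stimulus. Libraries of inhibitor-treated cells, which the selection did not use, showed changes at some of these elements, as described below. Members were selected on the DMSO values, as elements whose mean value in the 2 untreated DMSO libraries (UT) was at least 150 normalized read counts and whose log2(mean + 5) stayed within 0.3 of UT at all 8 combinations of stimulus and time. This rule found 307 of 59190 elements, which was 2.45% of the 12545 elements that reached the level of 150. The values in the 18 DMSO libraries chose the members, so those values are given below as a description and carry no test. The other 12238 elements at or above the level are called the other strong elements.

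Wild type mice gave the marrow from which the primary macrophages (BMDMs) were grown. Vehicle (DMSO) or 1 of 58 clinical kinase inhibitors (CKIs) was added 1 h ahead of the stimulus. Cells were then left untreated or given lipopolysaccharide (LPS, a bacterial ligand of the receptor TLR4) or interleukin 4 (IL-4, a T helper 2 cytokine) for 30 min, 1 h, 2 h or 4 h, and both stimuli were used at 10 ng/mL. H3K27ac, the acetylation of lysine 27 of histone H3, was measured by ChIP-seq in 564 libraries. DMSO had 2 libraries in each of its 9 groups. The UT libraries are titled as the starting time but described as 4 h without stimulus. The 546 CKI libraries comprised 73 UT, 241 LPS and 232 IL-4 libraries, mostly 1 per CKI, stimulus and time, and the labels do not tell whether samples of 1 group came from separate cultures or animals, so that p-values may measure technical spread only.

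H3K27ac is written by the acetyltransferases p300 and CBP and is found at active promoters and enhancers. In macrophages LPS acts through TLR4, NF-kB and interferon regulatory factors, and IL-4 acts through STAT6. Both redistribute acetylation at a wide range of enhancers. Promoters rich in CpG dinucleotides typically serve broadly expressed genes, are bound by factors such as SP1, the ETS family, NRF1 and YY1, and carry H3K27ac in most cell types.

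The sequences upstream of 5 members are shown because they hold the motifs whose share among the steady promoters is described further below. Each is the 120 bases before a RefSeq transcript start on GRCm38.p6 (mm10), written 5′ to 3′ on the strand of the gene and overlapping no exon of a coding gene. Capitals mark GGGCGG, the core of the SP1 site, and CCGGAAG, the core of the ETS site, on either strand. Actr3 (an ARP2/3 actin nucleation subunit) lies on the minus strand at chr1:125435728-125435847, Arpc4 (another ARP2/3 subunit) on the plus strand at chr6:113377993-113378112, Hnrnpd (an RNA-binding protein) on the minus strand at chr5:99978939-99979058, Gtf2a1 (a TFIIA subunit) on the minus strand at chr12:91590488-91590607 and Zc3h4 (a zinc finger protein that restricts non-coding transcription) on the plus strand at chr7:16401076-16401195.
Actr3: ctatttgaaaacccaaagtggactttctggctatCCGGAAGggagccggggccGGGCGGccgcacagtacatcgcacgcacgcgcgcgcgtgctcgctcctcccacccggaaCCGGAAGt
Arpc4: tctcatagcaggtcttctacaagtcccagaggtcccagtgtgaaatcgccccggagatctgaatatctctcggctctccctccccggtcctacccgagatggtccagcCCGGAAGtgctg
Hnrnpd: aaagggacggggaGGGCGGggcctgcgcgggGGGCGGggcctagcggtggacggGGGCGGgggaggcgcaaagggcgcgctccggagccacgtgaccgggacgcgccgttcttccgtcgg
Gtf2a1: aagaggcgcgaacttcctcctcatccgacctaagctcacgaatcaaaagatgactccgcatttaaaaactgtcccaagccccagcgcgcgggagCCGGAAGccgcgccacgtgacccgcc
Zc3h4: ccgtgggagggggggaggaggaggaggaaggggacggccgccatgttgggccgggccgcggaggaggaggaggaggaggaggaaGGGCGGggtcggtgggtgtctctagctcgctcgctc

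The steady elements were nearly all promoters. The centre of 283 of the 307 (92.2%, 95% Wilson interval 88.6 to 94.7, counting error only) lay within 1 kb of the start of a protein-coding transcript, against 45.2% of the other strong elements and 21.7% of all elements. Read the other way, 4.87% of the 5814 strong promoters were members and 0.357% of the 6731 strong elements away from promoters. Starts of genes on opposite strands shared the element at 56 member promoters (19.8%), against 13.3% of the other strong promoters and 8.93% of all promoters. Members were neither wider nor stronger than the rest of the strong elements. Their median width was 2227 bp against 2300 bp, and their median UT value was 269 (range 151 to 2079) against 262.

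Members were CpG-rich, and the steady promoters slightly more so than other strong promoters. In the central 1000 bp the median ratio of observed to expected CpG was 0.765 at member promoters, 0.711 at the other strong promoters and 0.207 at the other strong distal elements. A ratio over 0.6 was found at 86.2% of the member promoters and 65.6% of the other strong promoters, with median GC contents of 59.2% and 58%. The members away from promoters were mixed, with 11 of 24 over this ratio, against 2.73% of the other strong distal elements. Away from promoters means centred over 1 kb from a coding start. A coding start lay inside 290 members, against 283 counted as promoters, so some of the 24 hold a start. The share of these among the 11 was not determined. These are descriptions of base composition, with no test.

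**Figure D1:**
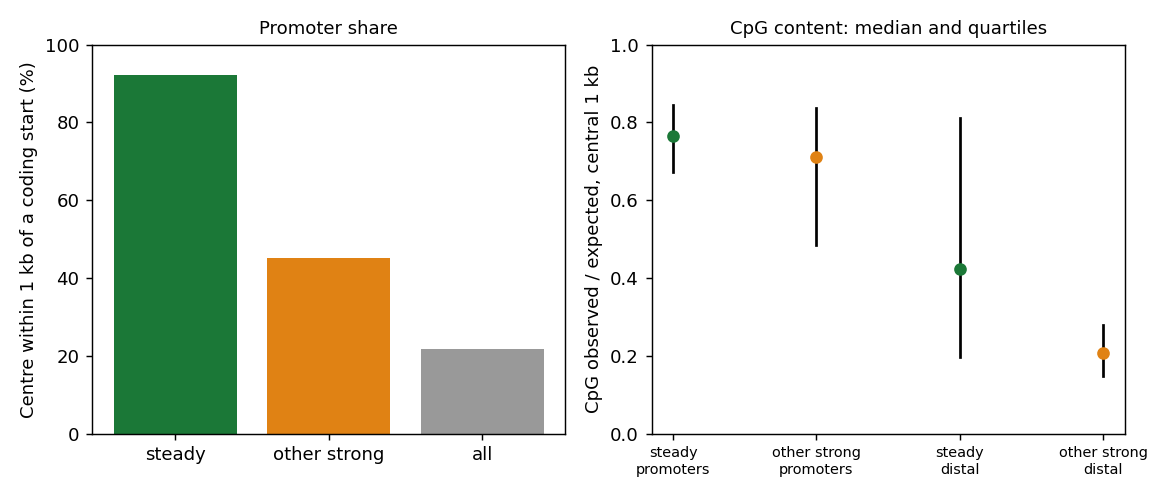
The left panel gives the share of elements (%) centred within 1 kb of a coding transcript start for the 307 steady, 12238 other strong and 59190 elements in all. The right panel gives the median (point) and quartiles (line) of the observed over expected CpG ratio in the central 1 kb. Steady promoters had a median of 0.765 and other strong promoters of 0.711, with a higher lower quartile in the steady set (0.672 against 0.486).

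The promoter windows of RefSeq (250 bases before to 50 after a start) held short motifs in unequal shares. Of 32817 windows, 393 had their start inside one of 252 members, and several starts of one gene count separately. CCGGAAG was found, on either strand, in 28.8% of the windows in members, 20.4% of those in other strong elements and 8.86% of all windows. GGGCGG was found in 70.2%, 64.1% and 35.6%. The NRF1 motif GCATGCGC was found in 7.63%, 5.78% and 2.71%, the YY1 motif AAGATGGCG in 4.83%, 3.17% and 1.40%, and the CREB motif TGACGTCA in 5.34%, 3.17% and 1.79%. The order was the opposite for CCAAT, the NF-Y motif, with 29.5%, 36.2% and 37.4%. CACGTG (the USF E-box) and ACTACAA (RONIN) were also less frequent in members than in other strong elements. Their shares were 9.16%, 10.5% and 7.15% for CACGTG and 3.31%, 4.28% and 3.24% for ACTACAA. Of motifs of factors that act in these responses, the following were below their shares in other strong elements, unlike the CREB motif, which signal-responsive factors also bind. GGGANTTCC (NF-kB) was in 1.78% against 2.67%, the interferon-stimulated response element (ISRE) in 2.29% against 3.59%, the STAT6 motif in 5.09% against 5.44%, and TGANTCA (AP-1) in 4.83% against 5.16%. A match of letters is not a bound site, and these shares carry no test.

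Among the 10 members with the highest UT values, 5 were promoters. The promoter shared by Brd2, a bromodomain reader of acetylated histones, and H2-DMa, a class II antigen loading chain (chr17:34118396-34125678), stood at 1841 and 2027 normalized read counts in the UT libraries, 1631 to 2348 (median 2139.5) in the 8 LPS libraries and 1812 to 2046 (median 1879) in the 8 IL-4 libraries. The promoter of Atp6v0c, a subunit of the vacuolar proton pump (chr17:24166270-24174421), stood at 1939 and 1828 in UT, 1568 to 2322 after LPS and 1827 to 2279 after IL-4. The promoter of Hcst, the adaptor DAP10 (chr7:30416931-30424098), stood at 1785 and 1809 in UT, 1470 to 2237 after LPS and 1430 to 1579 after IL-4. At Brd2 and Atp6v0c the UT values lay within the range of each stimulus, whereas at Hcst all IL-4 libraries lay below both UT libraries.

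Among the other high members the UT values mostly overlapped those after either stimulus, except that at Kmt2e all IL-4 libraries lay above both UT libraries. An element 1.06 kb from the start of Kmt2e, a chromatin regulator of the MLL family (chr5:23430539-23436223), stood at 1258 and 1302 in UT, 1125 to 1411 after LPS and 1303 to 1501 after IL-4. The Zc3h4 promoter (chr7:16398745-16402063) stood at 962 and 1070 in UT, 993 to 1211 after LPS and 875 to 1131 after IL-4. The promoter between Arpc4 and Tada3, a subunit of SAGA-type acetyltransferase complexes (chr6:113376631-113380803), stood at 894 and 927 in UT, 735 to 1067 after LPS and 876 to 1073 after IL-4. The 8 LPS libraries span 4 times, so these ranges include the course of the response as well as the spread between replicates.

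**Figure D2:**
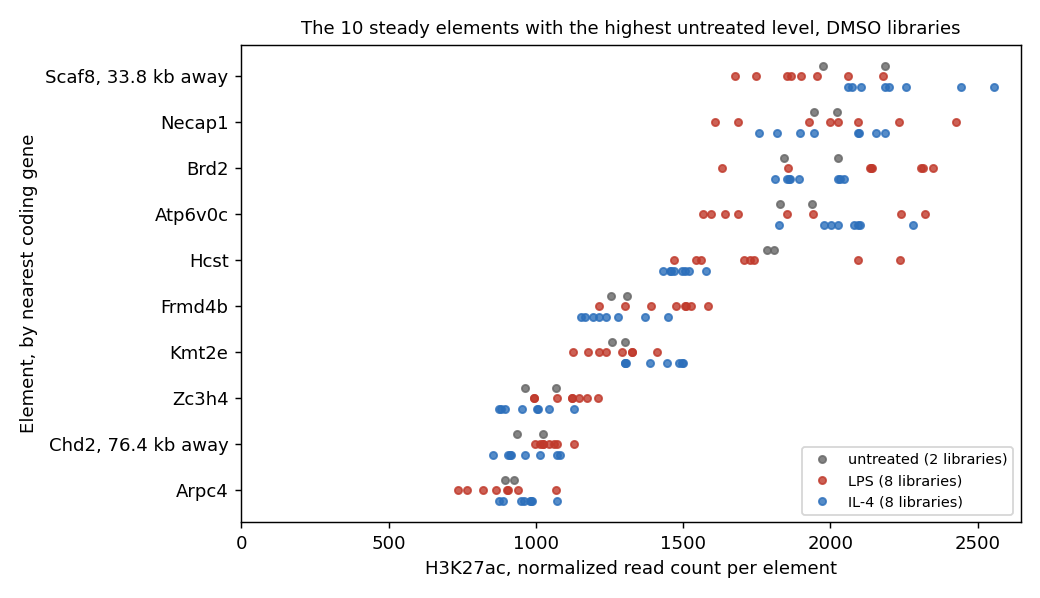
Normalized read counts (x axis) of the 10 members with the highest UT value in each DMSO library, with 2 UT, 8 LPS and 8 IL-4 libraries as points. Levels ran from 735 to 2554, and for Hcst the IL-4 points (1430 to 1579) lie left of both UT points, while for Kmt2e (1303 to 1501) they lie right of them.

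Of the 24 members away from promoters, 16 were centred between genes, 6 in introns and 2 in exons, and 3 lay over 50 kb from any coding start. The strongest member of all was one of them, an 8714 bp element 33.8 kb from the start of Scaf8 (chr17:3076826-3085539), at 1973 and 2185 in UT, 1677 to 2178 after LPS and 2061 to 2554 after IL-4. Of its 51-base windows, 56.0% occurred once in the genome, against a median of 100% over the members. Across all members, 31 had under 90% and 1 (Zfp119a, 49.7%) under 50% of such windows, so the reads of these few could come from more than 1 locus. The element 2.20 kb from the start of Necap1, an endocytosis protein (chr6:122869223-122875330), stood at 2022 and 1944 in UT, 1607 to 2425 after LPS and 1756 to 2184 after IL-4. An intronic element of Frmd4b (chr6:97455579-97459051) stood at 1309 and 1256, 1213 to 1584 and 1153 to 1448, and an element 76.4 kb from Chd2, a chromatin remodeler (chr7:73616474-73620045), at 937 and 1026, 998 to 1128 and 854 to 1082. At Necap1, Frmd4b and Chd2 the 3 groups overlapped.

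The members at promoters of listed gene groups are given by group, as counts with no test. Of the strong elements at promoters of each group, members were 6 of 48 for splicing factors and hnRNPs (Ddx5, Hnrnpd, Sf3b1, Sf3b4, Snrpc and Snrpd3), 5 of 44 for RNA polymerase II and mediator (Ercc3, Gtf2a1, Med16, Taf5 and Tbp), 5 of 43 for the actin cytoskeleton (Actr3, Arpc1b, Arpc4, Rac1 and Wasl) and 3 of 25 for the proteasome (Psma7, Psmb1 and Psmc3). Members were 3 of 51 for the respiratory chain (Ndufa4, Ndufb3 and Ndufb7), 3 of 45 for vesicle traffic (Arf1, Sec13 and Vps35), 1 of 47 for the lysosome (Atp6v0c), 1 of 15 for glycolysis (Aldoa), 1 of 26 for macrophage lineage factors (Klf6) and 1 of 14 for genes commonly used as a reference (Tbp, which shares its element with Psmb1). There was none of 67 for cytosolic ribosomal proteins, 29 for translation factors, 25 for macrophage markers, 12 for LPS-inducible and 6 for IL-4-inducible genes. Over all strong elements the share was 2.45%, and over strong promoters, the nearer comparison for these lists, it was 4.87%. At that share a short list may hold no member, so the counts of 0 in the smaller lists say little about them.

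The ribosomal protein promoters mostly left the width upward. In the DMSO libraries 63 of 67 exceeded UT by over 0.3 (log2) at one or more times after IL-4 and 51 of 67 after LPS, with medians of 0.71 at 2 h of IL-4 and 0.32 at 2 h of LPS. The macrophage marker promoters mostly left the width downward, 21 of 25 after LPS and 14 of 25 after IL-4, with a median of -0.78 at 2 h of LPS. The promoters of B cell, T cell, neutrophil, fibroblast and erythroid markers held no strong element, and 23 of 30 macrophage marker genes had a strong one, with a median of 574.5 over the list's elements.

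Single values show how close the groups lay. Sf3b1, the core subunit of the U2 snRNP, stood at 692 and 825 in UT, 659 to 814 after LPS and 654 to 823 after IL-4. The shared promoter of Psmb1 (a proteasome subunit) and Tbp (the TATA-binding protein) stood at 347 and 363 in UT, 300 to 433 after LPS and 353 to 439 after IL-4. The groups overlapped at Sf3b1, where 1 UT library lay just above all stimulated ones, and at the shared promoter, where 1 UT library lay just below the IL-4 range. Actr3 stood at 643 and 655 in UT, 574 to 835 after LPS and 500 to 599 after IL-4, so that all IL-4 libraries lay below both UT libraries. The rule was applied to the means of 2 libraries, and single libraries could lie farther from UT. Klf6, a macrophage transcription factor, stood at 562 and 687 in UT, 575 to 760 after LPS and 492 to 610 after IL-4.

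Further member genes were picked out after their values had been seen and are given as examples only. Both subunits of the RNA m6A methyltransferase were members, with Mettl3 at 154 and 152 in UT and Mettl14 at 145 and 189. So were both mitochondrial pyruvate carrier genes, with Mpc1 at 337 and 382 and Mpc2 at 267 and 298. Chromatin and transcription regulators included Setd2 (203 and 247), Eed (431 and 539), Kdm6a (175 and 213), Ctcf (271 and 277), Sp1 (418 and 442) and Nrf1 (240 and 323). A gene with a Zfp symbol, mostly zinc finger proteins, was at 20 of 283 member promoters (7.07%), 2.08% of other strong promoters and 2.56% of all promoters; these include Zfp119a, the least unique element. On the X chromosome 8 of 147 strong elements were members (5.44%).

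Elements lay close to the limits on both sides. Just inside the width were Acbd5 (largest difference 0.2996), Zfp943 (-0.2986) and Ubxn7 (0.2985), and just outside were Psmd3 (0.3002), Wdr78 (0.3005) and Bscl2 (0.3007). Just inside the level were an element near Was (151), Nedd1 (151.5) and Haus6 (151.5), and just outside Mut (149.5), Tcaim (149.5) and Fryl (149). Of the strong elements, 5.41% stayed within the width at all 4 LPS times and 22.4% at all 4 IL-4 times. Among strong distal elements the DMSO median difference was -1.03 at 2 h of LPS and -0.35 at 2 h of IL-4, against -0.11 and 0.14 at strong promoters. The rule is sensitive to its replicates. Replicate 1 of each DMSO group alone gave 184 elements and replicate 2 alone gave 259, and 52 were common to both (28.3% of the first and 20.1% of the second), although the median SD between the 2 libraries at the members was only 0.08 to 0.12 (log2).

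The CKI libraries, which the rule did not use, gave a separate measure of the responses to both stimuli. All of these cells had an inhibitor, so the fits average responses under inhibition and not the vehicle response of the rule. The scaling on invariant peaks may also not be independent of the DMSO libraries. The 4 times after LPS were compared with UT in 314 CKI libraries by limma's moderated F-test on log2(value + 5), with the CKI as a block and p-values adjusted over 59163 elements. At the threshold of adjusted p under 0.01 and a log2 difference over 1, none of 307 members was called after LPS, against 28.9% of all elements, although 257 members (83.7%, against 85.2% of all elements) passed the adjusted p alone and limma gave 275 an unadjusted p under 0.05. The count of 0 thus rests on the size of the differences. None was called after IL-4 (305 libraries), against 8.84% of all elements, with 222 members (72.3%, against 68.3%) past the adjusted p alone and 257 at an unadjusted p under 0.05 in limma. Among the other strong promoters the shares were 24.1% after LPS and 2.26% after IL-4. The largest difference of any member was -0.60 after LPS and -0.42 after IL-4.

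Smaller responses were present. With a log2 difference over 0.3 in place of 1, 84 members (27.4%) were called after LPS, against 80.4% of all elements and 82.5% of other strong promoters, and 26 (8.47%) after IL-4, against 54.7% of all and 43.5% of other strong promoters. After LPS 82 of the 84 fell and 2 rose. Of the other strong promoters called 3194 fell and 1369 rose, and of all elements 21507 fell and 26083 rose. After IL-4 22 of the 26 members rose and 4 fell. Of the other strong promoters 1352 rose and 1056 fell, and of all elements 17031 rose and 15302 fell. Quantile normalization changed the split of the members. It gave 25 rising and 34 falling of 59 called after LPS and 8 rising and 5 falling of 13 called after IL-4. Under that scaling 76.0% of all elements were called after LPS and 51.9% after IL-4. That scaling moved the median of all elements from 0.13 to 0.01 at 1 h of LPS. Of the members called in the deposited scaling, 84 of 84 and 26 of 26 kept their sign and 33 and 12 remained called in the same direction. That a member was not called does not show that it did not change. At this size 130 members were called in neither stimulus nor between them, a count not made over all elements.

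**Figure D3:**
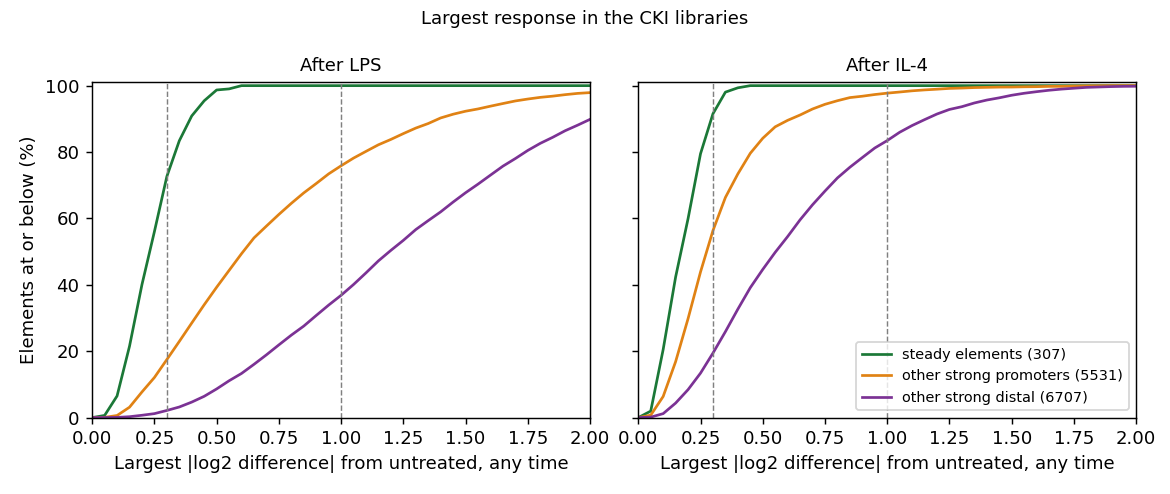
Cumulative share of elements (%, y axis) whose largest absolute log2 difference from UT in the CKI libraries is at or below the value on the x axis, after LPS (left) and IL-4 (right). The lines are 307 steady elements, 5531 other strong promoters and 6707 other strong distal elements, with dashed lines at 0.3 and 1. The steady line reaches 100% at 0.60 after LPS and 0.42 after IL-4.

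The largest difference of the 84 members called after LPS was mostly at 2 h (38) or 30 min (33). The largest fall was at the promoter of Ten1, a telomere capping protein (log2 difference -0.60, SE 0.06 at 2 h, limma adjusted p = 1.7e-23). Galns, a lysosomal sulfatase, fell by 0.59 (SE 0.06, limma adjusted p = 2.5e-16) and Mcfd2, a cargo factor of the early secretory pathway, fell by 0.57 (SE 0.05, limma adjusted p = 3.6e-23), both at 2 h. Atp6v0c fell by 0.51 (SE 0.04, limma adjusted p = 6.0e-38) at 2 h, and Bod1l, a protector of replication forks, fell by 0.49 at 30 min. In these genes the direction was the same with quantile normalization, with -0.47, -0.44, -0.44, -0.73 and -0.32. Both rises were at promoters at 1 h, those of Rbm26, an RNA-binding protein (0.38, SE 0.07), and Ctdspl2, a phosphatase (0.31, SE 0.05), with limma adjusted p = 1.3e-07 and 4.1e-15.

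The largest rise after IL-4 was at a signalling gene. Sh2b1, an adaptor of receptor kinases, rose by 0.42 (SE 0.04) at 4 h (limma adjusted p = 5.6e-21), Zfp369 by 0.38, an intronic element of Abca17 by 0.36, Ndufb7 (a complex I subunit) by 0.35 and Oma1 (a mitochondrial protease) by 0.34. The 4 falls were at 30 min, at an intronic element of the semaphorin receptor gene Plxnb2 (-0.42, SE 0.03), at Hcst (-0.38, SE 0.02), at an intronic element of the sorting nexin gene Snx10 (-0.32) and at Umps, an enzyme of pyrimidine synthesis (-0.32). Called after both stimuli were 6 members. Of all elements 80.4% were called after LPS and 54.7% after IL-4, and their overlap was not counted.

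Among the members at promoters of the listed gene groups, those called after LPS were Atp6v0c, Arpc4 (-0.44), Gtf2a1 (-0.41), Vps35 (-0.38), Aldoa (-0.37), Arpc1b (-0.35), Ndufb3 (-0.35) and Rac1 (-0.32), and all of these fell. Ndufb7 was called after IL-4. The splicing members did not pass at this size after either stimulus, with largest differences between -0.30 (Sf3b4) and 0.20 (Snrpc).

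More members were called between the stimuli than against UT, but these counts are not like for like. The rule held each stimulus within 0.3 of UT and set no such limit between the stimuli. The test between stimuli also used more libraries. LPS and IL-4 were compared at the same times in 546 CKI libraries by the same test. None of 307 members differed by over 1, against 30.1% of all elements, with 287 members (93.5%, against 84.2%) past the adjusted p alone and 295 at an unadjusted p under 0.05 in limma. Over 0.3, 159 (51.8%) differed, against 80.6% of all elements, and 157 of the 159 were lower after LPS. Of the other strong promoters 3595 of the 4766 called were lower after LPS, and of all elements 24416 of 47707. Quantile normalization gave 84 members, against 79.4% of all elements. Of these 84, 63 were lower after LPS, and 66 of the 159 remained called in the same direction. The largest differences were at Ten1 (-0.68, SE 0.06 at 2 h), at Prkar1a, the regulatory subunit of protein kinase A (-0.64, SE 0.04 at 2 h), and at Rabl6, a small GTPase (-0.64, SE 0.07 at 4 h), with limma adjusted p = 6.9e-47, 3.0e-61 and 5.7e-40. The 2 members higher after LPS were Rbm26 (0.37) and Hcst (0.36).

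The CKIs were profiled in 6 runs, here blocks of 8 to 10 CKIs whose columns follow each other and share no compound, and the size of the response varied among them. The fits within single runs were added after the data had been seen. Within runs, limma called between 17 and 123 members after LPS over 0.3, and between 14 and 122 after IL-4. The shares of other strong elements called in the same fits were 73.4 to 93.2% after LPS and 47.3 to 77.7% after IL-4. The median difference at 2 h of LPS was -0.44 in run 1 and 0.08 in run 4, and in run 4 34 of 65 called members rose. Only within run 1 did members pass the size of 1 after LPS, and these 3 were Galns (-1.08), Tnfrsf9 (-1.01), the costimulatory receptor CD137, which shares its promoter with Park7, and Ten1 (-1.005). In that fit 50.0% of the other strong elements passed the size of 1. Within run 2 Trp53bp2 differed between LPS and IL-4 by -1.14 at 4 h, where 42.7% of the other strong elements passed that size. The 4 genes were singled out by this result.

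Library contrast differed between the runs. It was taken as the median of the strongest 10% of elements over that of the weakest 10%. It was 53.0 to 133.7 in the DMSO libraries and 3.34 to 67.2 in the CKI libraries, with run medians from 11.1 (run 1) to 36.6 (run 4). By rising contrast (runs 1, 6, 2, 3, 5 and 4), members called over 0.3 numbered 123, 89, 17, 61, 93 and 65 after LPS. In the same order of runs they numbered 19, 14, 27, 24, 106 and 122 after IL-4. Inhibitor and contrast thus cannot be told apart between DMSO and CKI libraries, and the part of contrast in the results was not tested. Values of a library summed to 5923684 to 6873668 in DMSO and 4066894 to 12391410 in CKI libraries, and since they were scaled by the authors, the sequencing depth behind a value is unknown. Because the scaling used peaks judged invariant, elements of the kind described here may have entered it.

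**Figure D4:**
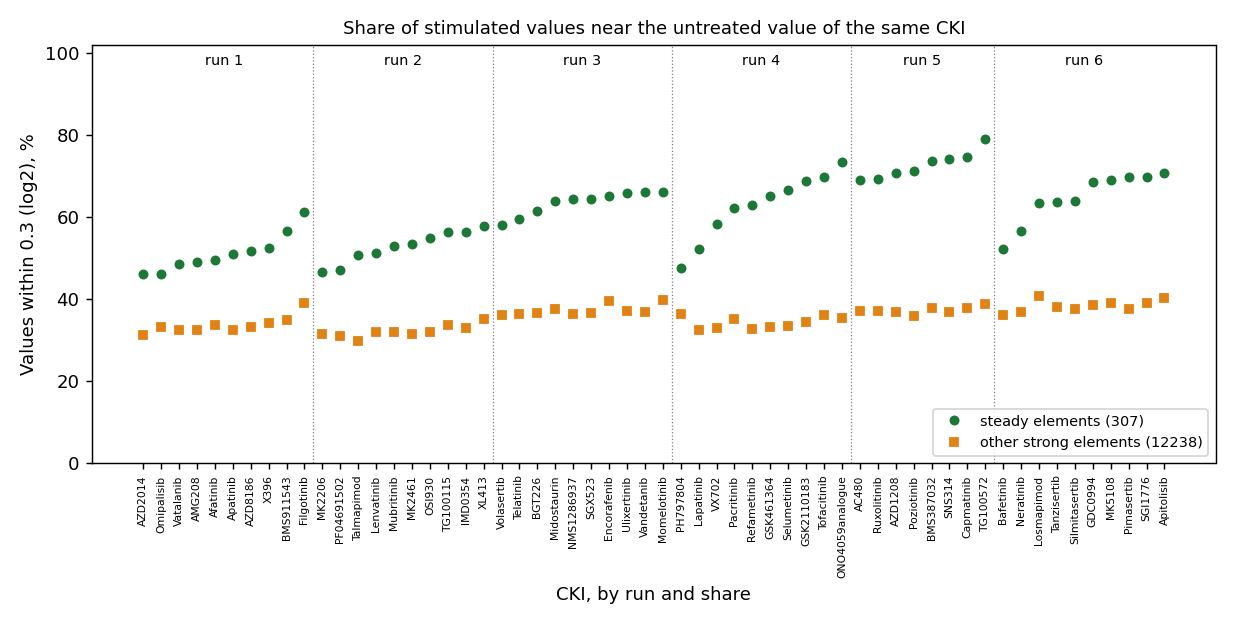
Share of stimulated values (%, y axis) lying within 0.3 (log2) of the UT value of the same CKI, for each of 58 CKIs ordered by run and share, in 307 steady (circles) and 12238 other strong elements (squares). Steady elements run from 46.0 to 78.9% and lie above the squares (29.8 to 40.8%) for every CKI.

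In each CKI taken alone, member values stayed nearer to UT than those of other strong elements. Values within 0.3 of the CKI's own UT made up a median of 62.6% over CKIs at the members (46.0% with AZD2014 to 78.9% with TG100572) and 35.9% at other strong elements. The run medians at the members went from 50.2% (run 1) to 72.4% (run 5). Values beyond 1 made up a median of 0.957% at the members (up to 8.88% with PH797804) and 19.1% at other strong elements. A CKI mostly had 1 library per condition, so these shares include the error of single libraries.

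The level itself varied over inhibitors as at other strong elements, and mainly between runs. The SD over the 58 CKIs, after centring each stimulus and time, had a median of 0.168 (log2) at members, 0.170 at other strong elements, 0.166 at other strong promoters and 0.266 at all tested elements. Centred on runs it was 0.100, 0.116, 0.105 and 0.183. Averaged over its conditions, the median member lay between 0.35 below (AZD2014) and 0.08 above (SNS314) DMSO, and below it for 44 of 58 CKIs, as the median of other strong elements did for 52 of 58. The median over all elements lay above DMSO for 58 of 58. DMSO values chose both strong sets, so these shifts are a description. The run medians of this shift went from -0.28 in run 1 to 0.06 in run 5, in which library contrast was 11.1 and 30.7.

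The most uniform member was the shared promoter of Hjurp, the chaperone of centromeric CENP-A, and Trpm8 (chr1:88276184-88278556), with an SD of 0.068. It stood at 613 to 1009 (median 826) in the 73 UT, 541 to 1108 (median 772) in the 241 LPS and 578 to 1126 (median 840.5) in the 232 IL-4 libraries. The next were an element near Vps26a (0.079), the promoter of Sec13, a COPII coat and nuclear pore protein (0.090), an element near Zfp213 (0.090) and the promoter of Adck2 (0.096). The most variable were Zc3h4 (0.294), Ss18l1 with Psma7 (0.285), Phf23 (0.282), the SUMO ligase gene Pias1 (0.278) and the element near Scaf8 (0.277). Within runs these 5 had SDs of 0.120 to 0.156. The Pias1 promoter stood at 66 to 311 (median 171) in UT, 47 to 381 after LPS and 52 to 318 after IL-4, and the Scaf8 element at 1863 to 5090 (median 2811), 1502 to 8271 and 1905 to 9971.

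**Figure D5:**
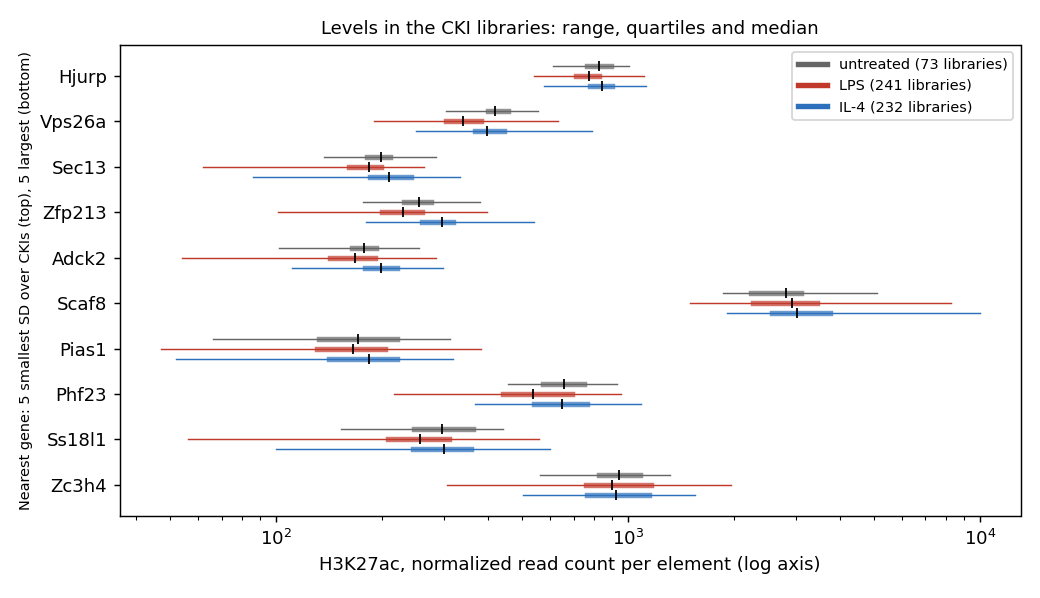
Normalized read counts (x axis, log scale) in the CKI libraries for the 5 members with the smallest (top) and the 5 with the largest SD over CKIs (bottom), in 73 UT, 241 LPS and 232 IL-4 libraries. Thin lines are ranges, thick lines quartiles and ticks medians. Hjurp stays between 541 and 1126, while the element near Scaf8 reaches 9971.

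Few members responded to a single inhibitor. Each CKI was compared with the mean of the 58 by limma, with stimulus and time in the model, and called at adjusted p under 0.05 and a log2 difference over 0.5. Of 17806 pairs of a member and a CKI, 56 were called (0.315%), 12 of them higher, against 5.53% of pairs over all elements and 1.24% at other strong elements. They involved 37 members (12.1%) and 24 CKIs, and 34 CKIs had none. With any CKI, 34.5% of other strong elements and 71.5% of all elements were called. The share at other strong promoters alone was not determined. The counts were led by AZD2014 with 8 members (2.61%, against 9.03% of all elements), PH797804 with 8 (2.61%, against 22.1%), Omipalisib with 6 (1.95%, against 27%), MK2461 with 4 (1.30%, against 2.95%) and Vatalanib with 4 (1.30%, against 9.45%). The shares lie below those of all elements for each of these 5 CKIs. At other strong elements the shares were 5.04%, 5.34%, 10.2%, 1.31% and 3.56% in the same order. For MK2461 the members and the other strong elements thus had nearly the same share.

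The called pairs followed the runs. Run 1 held 23 and run 3 none, and the 10 pairs of run 5 were all higher. With the mean of the same run as the reference 39 pairs were called, of which 9 were among the 56. PH797804 then had 36 members, against 41.1% of all elements, Omipalisib 2, and AZD2014, MK2461 and Vatalanib none, so the order of these CKIs did not hold. Among the 9 were the Zfp959 promoter with Omipalisib, and the Stk11, Sp1, Rwdd2b, Zfp866 and Kdm6a promoters and the elements near Was and Arhgap4 with PH797804. The PH797804 libraries had a median contrast of 10.3, against a run median of 36.6 in run 4, from which its reference was taken. The part of contrast in the PH797804 calls was not tested. The 6 calls at Pias1 and 5 at Ss18l1 were lost.

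Omipalisib, an inhibitor of PI3K and mTOR, gave -0.90 at Zfp959, of whose 51-base windows 59.2% were unique, -0.60 at Actr3 and 0.76 at the element near Scaf8. Its libraries had the lowest median contrast of any CKI (8.20). PH797804, an inhibitor of p38, gave -0.74 at an intronic element of Arhgap4, -0.62 at the element near Was and -0.60 at Sp1. Against the mean of its run these were -0.77, -0.72 and -0.68, and all were called. AZD2014, an inhibitor of mTOR, gave -0.61 near Was, -0.60 at the Abca17 intron and -0.57 at Sh3gl1. Against the mean of its run these were -0.32, -0.40 and -0.37, and none was called. MK2461 gave -0.61 at Ss18l1, -0.55 at Serf2 and -0.55 at Kdm2a, and Vatalanib -0.57 at Gorab, -0.55 near Was and -0.54 at Gatad2b. Against the means of their runs the MK2461 values were -0.21, -0.23 and -0.22 and the Vatalanib values -0.26, -0.26 and -0.26. None of these was called. The element near Was was called with 3 CKIs and had 64.7% unique windows. Of these 3 calls only that with PH797804 was kept with the same-run reference.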

How the data were processed

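H3K27ac ChIP-seq was measured in 564 libraries. The authors mapped reads to mm10 with ShortStack, counted them at ATAC-seq peaks and scaled them on peaks judged invariant. The submitters' processing notes name Bowtie and SAMtools, with no versions. The deposited values are normalized read counts, treated here as a score because they had been scaled and rounded, so no count model was used. All columns belonged to labelled samples. The study's labels gave stimulus, time and compound.

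Members were selected on DMSO values, and the members, gene lists and motifs were chosen with earlier results of these data known. Named genes were the 10 highest members, the 5 smallest and 5 largest SDs, the 3 nearest each threshold, the 5 largest called rises and falls in each test, members at promoters of the 20 gene lists, the 3 largest differences for the 5 leading CKIs, and genes stated as picked afterwards. Some items that this rule selects are not reported here. Promoters were set with GENCODE M21 coding transcripts. Tests used CKI libraries only, in R 4.3.3 with limma 3.58.1, after a filter on a mean of at least 10, with p-values adjusted after Benjamini and Hochberg. Descriptions used Python 3.11.15, numpy 2.4.6 and pandas 2.3.3. On simulated data for the LPS test (59163 elements) 89 of 100 log2 changes of 0.5 and 100 of 100 of 1.5 were called over 0.3, with 2 false calls. The runs were read from column order, and no label states them. Element positions were checked against the lengths of 21 chromosomes, and none lay past an end. Alternatives covered the pseudocount, filter, scaling, block, runs and DMSO libraries.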

Additional observations from a re-analysis of the deposited data

Results flagged for a closer look

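The responses to LPS and IL-4 differed at 159 members over 0.3 (log2) in the CKI libraries, by a direct limma test of LPS against IL-4 at the same times (80.6% of all elements passed). The largest were LPS minus IL-4 differences of -0.68 at Ten1, -0.64 at Prkar1a and -0.64 at Rabl6, and the largest in the other direction was 0.37 at Rbm26. In the DMSO libraries, whose values chose the members, Ten1 stood at 315 and 310 in UT, 230 to 305 after LPS and 273 to 375 after IL-4. The part of the runs and of library contrast in these differences was not tested.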

How the results depend on the processing

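The number of members was 59 with a width of 0.2, 817 with 0.4, 120 with a UT level of 300 and 184 with replicate 1 of every group alone. Leaving out 1 DMSO library at a time gave 269 to 362 members and promoter shares of 91.2 to 93.2%, with 185 to 303 of the 307 kept. The fewest were kept without the second UT library. Quantile normalization gave 355, of which 228 were members. The promoter share was 88.3% with a UT level of 300 and 94.8% with a centre within 2.5 kb of a start.

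The counts of 0 over a log2 difference of 1 stayed at 0 under each other scaling, filter, block and set of runs tried, and the exceptions within single runs, fits added after seeing the data, were 3 members in run 1 after LPS and 1 in run 2 between stimuli. Over 0.3, members called after IL-4 numbered 13 with a pseudocount of 20, 13 with quantile normalization and 17 without the compound block, and those differing between stimuli 84 with quantile normalization. Pairs of a member and a CKI numbered 26 with a pseudocount of 20 and 32 without run 5. The median SD over CKIs was 0.219 in UT, 0.233 in LPS libraries and 0.100 within runs. Of 154 alternatives, 139 stayed within their limits, and for the values named here the cause was not tested. The limits for counts compared totals only, whichever elements or pairs were called. The 39 pairs with the same-run reference lay within them, although only 9 of the 56 pairs were kept. So did the 259 elements from replicate 2 alone, of which 132 were members. No paired analysis was possible because replicate numbers are on the DMSO libraries alone, which chose the members and entered no test. The CKI tests kept the compound as a block, and leaving it out is among the alternatives. Most conditions rest on 1 library per CKI.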
